A study of Drosophila melanogaster with 3 samples.

Results

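The MCM regions in the interior of chromosome arm 3R were the regions of the whole-series list that start between 2 and 25.9 Mb of 3R on FlyBase release 5.1, which leaves about 2 Mb off each arm end. They numbered 1374, or 19.5% of the 7029 regions of the list and 86.0% of the 1598 regions on 3R. Membership was set by position alone, so counts, widths, scores and spacing were free to vary. The regions come from chromatin immunoprecipitation and Illumina sequencing in Kc167, a female Drosophila melanogaster line derived from embryos, with genotype se/e in the labels, grown as asynchronous cultures. The mouse monoclonal antibody was raised against purified yeast MCM complex and binds the Walker B motif of the MCM2-7 complex. Replicates 1 and 2 are immunoprecipitations of separately numbered chromatin extractions, and 1 input sample came from a further extraction. The input was not analysed here, and the values have no background measured in it. An asynchronous culture mixes cells of all cell cycle stages, and nothing in the labels ties the extractions to separate cultures, so the spread between replicates may be technical.

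The MCM2-7 complex is the ring-shaped core of the replicative helicase. It is loaded onto DNA in an inactive form at sites marked by the origin recognition complex before S phase, and a part of the loaded complexes is later activated when origins fire. More complexes are loaded than are used, and those not used are removed as replication forks pass through. A map of MCM in a cell population thus shows where helicase can be found on DNA, not which origins fire.

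Replicate 1 had 2035 MCM peaks in the interior of 3R, which covered 377 kb of its 23.9 Mb. Replicate 2 had 1610 peaks, which covered 283 kb. The density was 85.1 peaks per Mb in replicate 1 and 67.4 in replicate 2, a mean of 76.3 ± 12.6 (SD, n = 2), and peaks covered 1.38% ± 0.277 of the sequence (SD, n = 2). Replicate 1 held more peaks in 156 of 239 windows of 100 kb, replicate 2 in 19, and the counts were equal in 64. The 1374 regions that both replicates contributed to had a density of 57.5 per Mb and covered 359 kb.

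The other arms with the same 2 Mb left off their ends gave the background, namely 2L from 2 to 21 Mb, 3L from 2 to 22.5 Mb and X from 2 to 20.4 Mb. The interior of 3R had 85.1 peaks per Mb in replicate 1, against 88.0 in these 3 intervals together, and 67.4 in replicate 2, against 69.2. The ratio was 0.970 ± 0.00401 (SD, n = 2), so 3R lay slightly under their joint density in both replicates. Among single arms, 3R lay between them. Its density was 1.13 ± 0.0270 times that of 2L, 0.975 ± 0.000954 times that of 3L and 0.840 ± 0.00660 times that of X (SD, n = 2 each). An exact sign-flip test over 2 replicates cannot give a two-sided p below 0.5, so no difference between arms was tested, and none is called particular to 3R.

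In covered length, 3R had 15.8 kb per Mb in replicate 1 and 11.8 kb per Mb in replicate 2, and its ratio to the other interiors was 0.953 ± 0.000430 (SD, n = 2). The median gap between neighbouring peaks was 3475 bp on 3R, against 3236.5 bp elsewhere, in replicate 1, and 4523 bp, against 4208.5 bp, in replicate 2. That is a ratio of 1.07 ± 0.000735 (SD, n = 2). Each replicate was set against its own list, and 2 values give little precision on an SD. When only peaks at or above the median score of their list were kept, the gap ratio was 1.23 and the density ratio 0.892. Merging neighbours up to 1 kb apart gave gap ratios of 1.02 in replicate 1 and 0.994 in replicate 2, and to 2L alone, without merging, the ratio was 0.888 ± 0.0278 (SD, n = 2).

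Counts in windows of 100 kb were also compared. With 239 such windows from the start of the interval, 12 were empty in replicate 1 and 15 in replicate 2, or 5.65% ± 0.888 (SD, n = 2), against 7.08% ± 1.71 on the other interiors. The difference was -1.43 percentage points, and was -0.0247 with windows of 200 kb and -0.142 with the higher-scoring peaks. At the other end, 38 windows held 15 or more peaks in replicate 1 and 17 in replicate 2, or 11.5% ± 6.21, against 15.3% ± 5.50 elsewhere (SD, n = 2 each). This difference of -3.78 points was -0.0668 once peaks within 1 kb of each other had been merged. Merging lowers the counts on every arm while the limit stayed at 15, and longer windows are less often empty. Differences under these settings thus have other base rates and cannot show that a difference was removed. The variance of the window counts was 4.76 times their mean in replicate 1 and 4.04 times in replicate 2, within the 3.90 to 5.12 of the other arms and replicates.

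**Figure D1:**
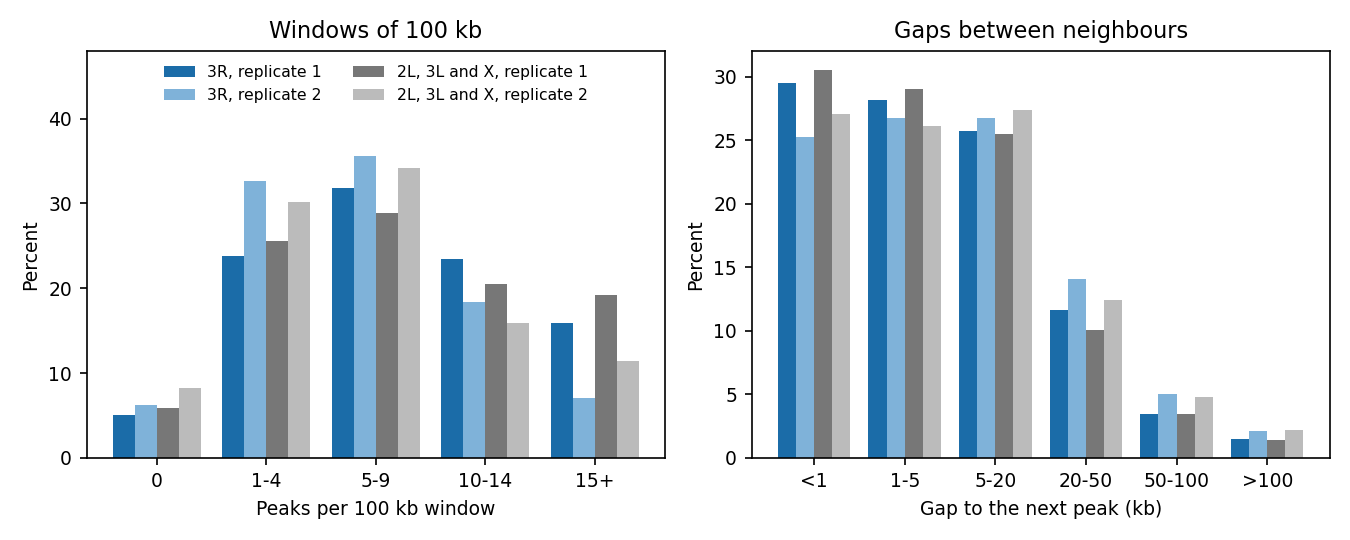
Percent of 100 kb windows by the number of peaks in them (left) and percent of gaps between neighbouring peaks by length in kb (right), for the interior of 3R and the pooled interiors of 2L, 3L and X in each replicate. On 3R, 15.9% and 7.11% of the windows held 15 or more peaks in replicates 1 and 2, and gaps under 1 kb made up 29.5% and 25.3% of all gaps.

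Along the arm, the number of MCM peaks did not run in one direction. The centromere of 3R lies at the low coordinates. Cut into 4 blocks of equal length from that side, the interior held 326, 352, 395 and 301 regions. The block from 13950001 to 19925000 was the densest, with 97.2 peaks per Mb in replicate 1 and 79.2 in replicate 2, a mean of 88.2 ± 12.8. The last block, from 19925001 to the end of the interval, was the sparsest, with 75.5 and 57.9 peaks per Mb, a mean of 66.7 ± 12.4. The blocks nearest the centromere had means of 76.0 ± 13.7 and 74.1 ± 11.4 (SD, n = 2 each). Most of each SD is the overall excess of replicate 1, and the order of the densest and sparsest blocks was the same in both replicates.

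At 1 Mb the contrast was larger. The 24 windows, of which the last is 0.9 Mb long, ran from 37 to 88 regions per Mb around a median of 55.5. The densest was 12000001 to 13000000, with 88 regions, 114 peaks in replicate 1 and 95 in replicate 2. Next in density were 17000001 to 18000000, with 85 regions and 111 and 98 peaks in replicates 1 and 2, and 5000001 to 6000000, with 79 regions and 113 and 93 peaks. The sparsest was 23000001 to 24000000, with 37 regions, 52 peaks in replicate 1 and 45 in replicate 2. Next came 24000001 to 25000000 with 39 regions and 6000001 to 7000000 with 40, which tied with 15000001 to 16000000. Each replicate had fewer peaks in every one of these 4 sparse windows than in any of the 3 dense windows. The windows were ranked by regions built from these same peaks, so this order was largely set by the ranking.

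Dense windows could lie beside sparse ones or beside other dense ones. The window from 5000001 to 6000000, one of the 3 densest, was followed by one of the sparsest. The densest, with 88 regions, was followed by a window of 46. The 2 sparsest windows adjoined, as did 16000001 to 17000000 with 72 regions and 17000001 to 18000000 with 85. Both replicates followed this course, with Spearman's rho of 0.940 between their counts over the 24 windows. The counts share the peaks that both replicates found, and rho is given as a description. The ratio of the highest to the lowest full window was 2.31 on 3R in replicate 1 and 2.18 in replicate 2. It was 3.45 and 4.0 on 2L, 2.16 and 2.52 on 3L, and 1.69 and 1.77 on X.

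**Figure D2:**
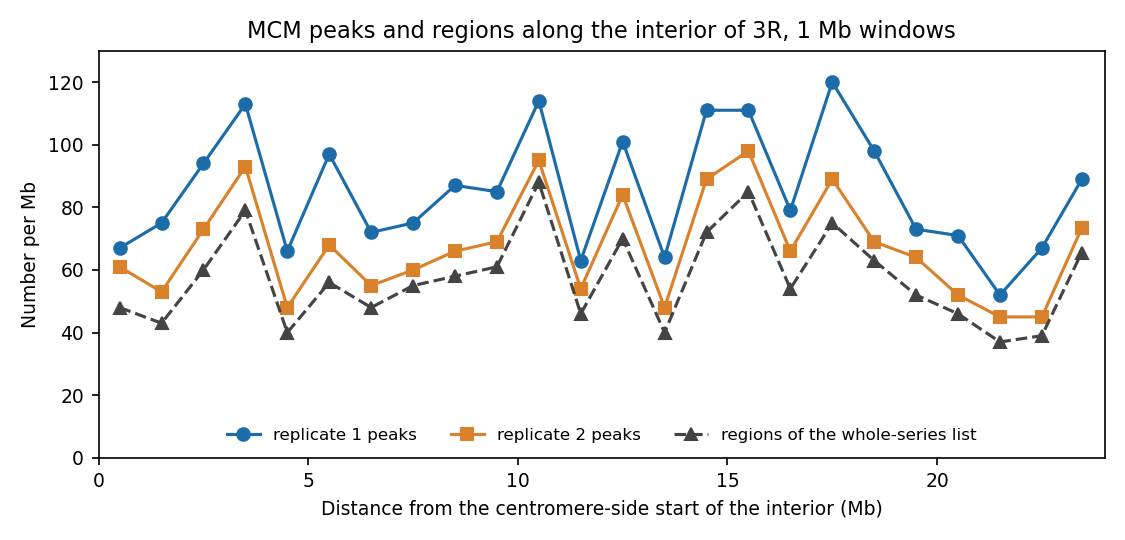
Peaks per Mb in replicate 1 and replicate 2 and regions per Mb of the whole-series list in 24 windows of 1 Mb, against distance in Mb from the centromere-side start of the interior of 3R. The lines rise and dip together, between 37 and 88 regions per Mb.

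Median widths and scores varied less between 1 Mb windows than the number of regions did. The median region width of a window stayed between 174 and 235 bp, and the median score between 2.24 and 2.76. Over the 24 windows, Spearman's rho between regions per Mb and the median score was 0.110, and between regions per Mb and the median width 0.0919. The deposited score of a region is the authors' own, with no stated unit. The share of peaks found in both replicates ran from 57.7% to 78.1% for replicate 1 and from 81.1% to 95% for replicate 2. The densest window, 12000001 to 13000000, was at the top for replicate 1, with 78.1% shared, and had 94.7% shared for replicate 2. It was picked as densest by its regions, which need peaks of both replicates, so a high share there is partly built in.

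At 100 kb, 2 windows stood above the rest. The window from 12000001 to 12100000 held 32 regions, 39 peaks in replicate 1 and 35 in replicate 2. Its neighbours held 3 regions on the centromere side and 12 on the other. Its regions had a median width of 430.5 bp and a median gap of 756 bp, against 204 bp and 5839 bp over all members, and covered 15.3 kb of the 100 kb. The window from 17400001 to 17500000 held 29 regions, 38 peaks in replicate 1 and 32 in replicate 2, and lay between windows with 3 regions and 1 region. Its regions had a median width of 249 bp and a median gap of 1431 bp. Both windows were picked for their number of regions, so short gaps in them are largely built in. Both concentrations were narrow, since the windows beside them held at most 12 regions.

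The 3 next densest windows were nearer to the rest. They were 17000001 to 17100000 with 17 regions, and 19100001 to 19200000 and 19800001 to 19900000 with 16 each. The 7 windows with 15 or more regions held 140 of the members, or 10.2%, and no 2 of them were adjacent. Where windows begin decides such counts. With windows moved by 50 kb, the highest count of peaks was 31 in replicate 1 and 25 in replicate 2, against 39 and 35 before.

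Empty windows were scattered in the same way. Of the 239 windows, 16 held no region and 11 of these held no peak of either replicate. They adjoined windows with up to 16 regions, and the window pair from 19200001 to 19400000 was the only case of neighbouring empty windows. On a second grid, laid from the start of each block, the 4 blocks from the centromere side held 1, 7, 2 and 6 empty windows. These counts are not a split of the 16 windows above. Of the 16, those starting at 15500001, 16200001, 18000001, 19200001 and 19300001 lay in the block from 13950001 to 19925000, which had 2 on the second grid. Counts of empty windows per block thus depend on where windows begin.

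**Figure D3:**
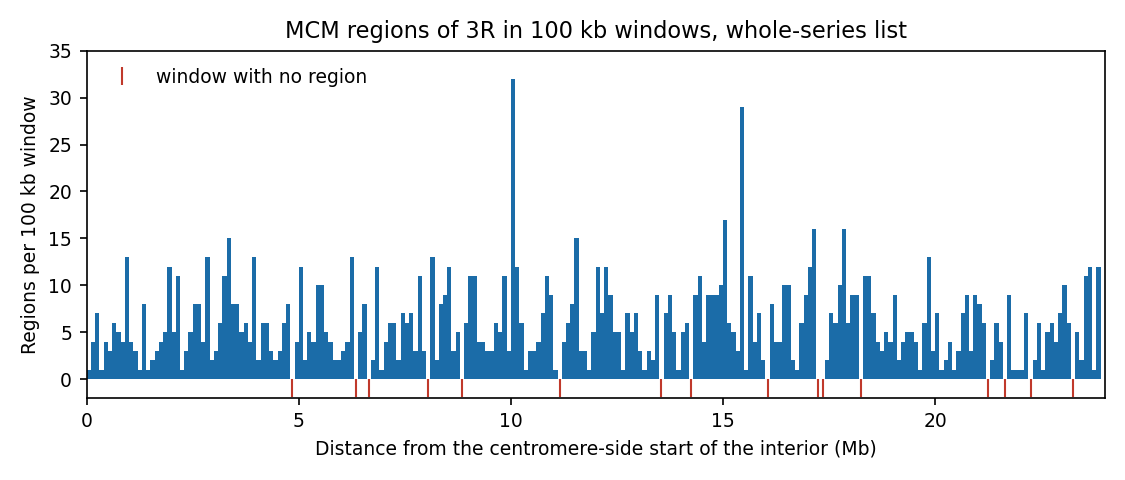
Regions of the whole-series list in each of 239 windows of 100 kb, against distance in Mb from the centromere-side start of the interior of 3R, with ticks below the axis marking the 16 windows with no region. The windows with 32 and 29 regions stand out, and empty windows are spread along the arm.

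Stretches without a peak in either replicate ranged widely in length. The interior of 3R had 2220 of them with a median of 2.93 kb, and 29 were over 100 kb long and took up 17.0% of the interval. That share was 19.6% on 2L, 14.5% on 3L and 16.7% on X. The longest ran from 19184839 to 19427127, over 242 kb. The next were 23532527 to 23742092 with 210 kb, 24171269 to 24365885 with 195 kb, 10735170 to 10913585 with 178.4 kb, and 23912027 to 24090386 with 178.4 kb. So 3 of the 5 longest lay within 1 Mb of each other in the 2 sparsest windows of 1 Mb. Without read counts or input values, a lack of MCM in these stretches and a lack of positions where a peak could be called cannot be told apart.

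Some of the longest free stretches lay near named members. The longest began 25.4 kb beyond the widest pair of members on the arm and inside the window with 16 regions that precedes it. The one from 24171269 ended at the highest-scoring member of the arm, the region from 24365886 to 24366121, and the one from 23912027 began at an isolated member, 23911909 to 23912026. The nearest regions on both sides of the 5 stretches scored from 1.95 to 8.95, and so covered most of the range of scores on 3R.

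Most members lay close to another. The median gap between neighbouring members was 5.84 kb, with 21.3% of gaps under 1 kb, 25.4% from 1 to 5 kb, 28.1% from 5 to 20 kb and 2.62% over 100 kb. Linked by gaps of at most 5 kb, the members formed 419 singles, 156 pairs, 121 runs of 3 or 4, and 36 runs of 5 or more. The 36 runs held 234 members, or 17.0%, against 13.7% on 2L, 19.4% on 3L and 27.8% on X. The shortest gap between peaks within a replicate was 200 bp on each of the 4 arms.

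The longest run held 21 members in 39.9 kb, from 12047000 to 12086882 within the densest window. Its members covered 28.7% of the run, with a median width of 477 bp and scores from 1.57 to 4.70. Replicate 1 had 24 peaks and replicate 2 had 21 peaks in it. A run of 10 members from 3930957 to 3952725 held 18 peaks in replicate 1 but 11 in replicate 2. Another run of 10, from 17475678 to 17488530 in the second densest window, held 10 peaks in each replicate and had a median gap of 714 bp. No other run had as many as 10 members.

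At the opposite end were 109 members more than 20 kb from any other region of the arm, or 7.93%, against 9.07% on 2L, 7.15% on 3L and 6.37% on X. The most isolated was 18724924 to 18725079, with 105.0 kb to its nearest neighbour and almost the same distance on the other side. Its score was 4.20 in the whole-series list, 4.56 in replicate 1 and 3.85 in replicate 2. The others were 23911909 to 23912026 with 97.7 kb, 15980497 to 15980674 with 95.6 kb, 3469381 to 3469480 with 94.4 kb and 13057516 to 13057695 with 79.9 kb. All 5 were narrow, from 100 to 180 bp, and their scores ran from 2.02 to 4.20.

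Isolated members were narrower, and their scores lay close to those of the rest. The median width was 161 bp for members more than 20 kb from any other and 229 bp for the 519 members within 1 kb of another, while the median scores were 2.46 and 2.52. The same order of widths was seen on 2L (190 and 240 bp), 3L (165 and 226 bp) and X (165 and 250 bp). Sorted into 4 groups of equal size by distance to the nearest region, the members had median widths of 231.5, 216, 201 and 169 bp from near to far, and median scores of 2.51, 2.48, 2.38 and 2.52.

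Members were short relative to the distances between them. Their median width was 204 bp, with an interquartile range of 133 to 329 bp, and 11.9% were under 100 bp. The median peak was 134 bp wide in replicate 1 and 130 bp in replicate 2, against 135 bp in each replicate on the other interiors, a ratio of 0.978 ± 0.0210 (SD, n = 2) that was 1.003 once peaks within 1 kb had been merged. Members join the extents of overlapping peaks of both replicates and leave out peaks without a partner, and the peaks with a partner had median widths of 187 bp in replicate 1 and 146 bp in replicate 2. Wide members scored higher. In 4 groups of equal size by width, the median score was 2.15, 2.31, 2.65 and 2.79, and Spearman's rho between width and score was 0.337 over the 1374 members.

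The wide tail held 76 members of 600 bp or more, or 5.53%, against 5.34% on 2L, 5.15% on 3L and 7.81% on X, and 16 members were over 1000 bp. The widest 2 lay 3.21 kb apart, at 19151354 to 19154403 with 3050 bp and at 19157618 to 19159405 with 1788 bp. Their extents differed between the replicates, since peaks covered 1680 bp of the first in replicate 1 and 3025 bp in replicate 2, and 1536 bp and 790 bp of the second. Both had low scores in the whole-series list, 1.53 and 1.77. The highest peak of the second scored 2.96 in replicate 1 but 1.44 in replicate 2. The next were 14069396 to 14071066 with 1671 bp and a score of 3.48, 12075145 to 12076553 with 1409 bp and 2.73, and 13526406 to 13527810 with 1405 bp and 4.83. In these 3 the covered lengths of the replicates lay closer together. The region from 12075145 lies in the longest run. The densest 1 Mb window held 10 of the 76 broad members, and 88 of all 1374 members. The window from 19000001 to 20000000 held 8 broad members among its 75.

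Scores of the members ran from 1.27 to 8.95 with a median of 2.47. The highest belonged to 24365886 to 24366121, a region of 236 bp with 8.60 in replicate 1 and 9.30 in replicate 2. Both replicates gave it nearly the same extent, and it lay next to a free stretch of 195 kb. Next, 3072661 to 3072727, was only 67 bp wide and scored 8.01 in replicate 1 and 6.62 in replicate 2. Then came 11983621 to 11984063 with 7.28 and 6.35, 16656118 to 16656383 with 6.45 and 5.94, and 14228368 to 14228540 with 6.33 and 5.59 in replicates 1 and 2. Thus 4 of the 5 scored higher in replicate 1, near the share of 81.6% among the 1326 members with 1 peak in each replicate. None of these 5 is among the 5 widest or the 5 most isolated members, but lists of 5 from 1374 members would seldom overlap anyway.

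Peaks of 3R scored slightly under those of the other interiors as a pool. In replicate 1 the median score was 2.48 on 3R, against 2.61 elsewhere, and in replicate 2 it was 2.29, against 2.32, a difference of -0.0831 ± 0.0704 (SD, n = 2). Of single arms, 3L was above 3R in replicate 1, with 2.53, but below it in replicate 2, with 2.26. The density ratio of 3R to the other interiors was also taken for peaks at or above the median score of each list. It was 0.849 in replicate 1 and 0.934 in replicate 2, against 0.967 and 0.973 for all peaks.

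Members were by construction places where peaks of both replicates overlap, which limits how far their positions can differ. Of the 1374 members, 1326 (96.5%) consisted of 1 peak of each replicate, 13 held 2 peaks of replicate 1 and 37 held 2 peaks of replicate 2, and none held more. In the 1326, the starts of the 2 peaks differed by a median of 21 bp, the ends by 21 bp and the centres by 16 bp, and the centre offset was 66.25 bp at the 90th percentile. In 20 members the starts were the same base. The peak of replicate 1 was the wider one in 937 of them (70.7%), with median widths of 182.5 bp in replicate 1 and 144 bp in replicate 2. Median offsets of the centres were 16 bp on 2L, 15 bp on 3L and 16 bp on X.

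Peaks of 3R found in both replicates made up 68.2% of the list of replicate 1 (1387 of 2035, exact Clopper-Pearson 95% interval 66.1% to 70.2%) and 87.6% of that of replicate 2 (1411 of 1610, 85.9% to 89.2%). On the other interiors together they made up 67.2% and 86.9%. The difference was 0.883 ± 0.138 percentage points (SD, n = 2), and it was -3.08 points when only peaks at or above the median score of each list were kept, made up of 0.755 for replicate 1 and -6.92 for replicate 2. These are 2 directions of 1 overlap, and the intervals cover counting error only.

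The peaks of 3R without a partner numbered 648 in replicate 1 and 199 in replicate 2. They were short, with median widths of 61 bp and 39 bp in replicates 1 and 2, against 187 bp and 146 bp for peaks with a partner. Their median scores were 2.11 and 2.08, against 2.63 and 2.31. Within 1 kb of a region lay 236 (36.4%) of those of replicate 1 and 83 (41.7%) of those of replicate 2. These shares lay within those of 2L, 3L and X, 31.7% to 41.3% in replicate 1 and 37.9% to 41.8% in replicate 2. Of all peaks of 3R, 49.4% and 43.9% lay within 1 kb of another peak of their own list, which is a different measure. Of the peaks without a partner, 44 (6.79%) and 11 (5.53%) lay more than 20 kb from any region in replicates 1 and 2. On 2L, 3L and X these shares were 5.46% to 9.70% in replicate 1 and 7.03% to 10.5% in replicate 2.

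Scores of the members were ordered alike in both replicates. Over the 1326 members with 1 peak in each, Spearman's rho between the scores was 0.860, and that between the widths was 0.778. Both peaks of a member were chosen for overlapping, and the values describe these lists only. Their median score was 2.63 in replicate 1, above the 2.30 of replicate 2. The members with the largest excess of replicate 1 were 20599095 to 20599418 (2.72 and 1.498 in replicates 1 and 2), 11851576 to 11851725 (4.27 and 2.42) and 17191244 to 17191365 (2.83 and 1.65). Those with the largest excess of replicate 2 were 17766897 to 17767059 (4.76 and 6.95), 16609874 to 16610071 (2.27 and 3.21) and 5168997 to 5169112 (3.33 and 4.68). Even in these 6 the scores differed by no more than 1.82 times.

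**Figure D4:**
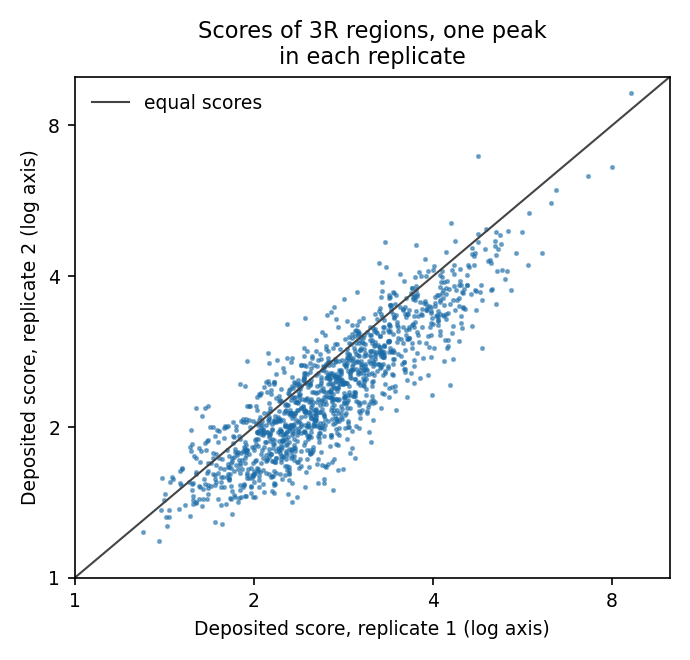
Deposited scores in replicate 1 and replicate 2, both on log axes, of the 1326 regions in the interior of 3R that consist of 1 peak in each replicate, with the line of equal scores. Most points, 1082 of them, lie under the line, where replicate 1 is higher.

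The balance of the scores between the replicates was shifted on 3R relative to the other arms. Of the 1326 members, 1082 (81.6%, exact 95% interval 79.4% to 83.7%) scored higher in replicate 1, against 2915 of 3281 regions (88.8%, 87.7% to 89.9%) on the other interiors. The single arms gave 89.98% on 2L, 88.1% on 3L and 88.7% on X. On the log2 scale, the median ratio of replicate 1 over replicate 2 scores was 0.18 on 3R, against 0.27 on 2L, 0.23 on 3L and 0.23 on X. There is 1 pair of libraries, so this shift has no replicate of its own and was not tested. The intervals treat regions as independent and cover counting error only.

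The shift was spread over 3R but not seen in every window. Over 1 Mb windows, the median log2 ratio was above 0 in all 24 and lay between 0.11 and 0.25, and it was under 0.2 in 16 of the 24, against 6 of 59 windows on the other interiors. The other 8 windows of 3R lay within the 0.16 to 0.41 of the other interiors, and so did part of the 16. The limit of 0.2 was chosen after the values were seen. Cut at its midpoint, the interior had 81.1% of pairs higher in replicate 1 on the centromere side and 82.1% on the other side, while the corresponding parts of the other arms had 87.6% to 90.1%. The direction of the shift was the same at all levels of score. Among regions of the lowest, middle and highest scores, cut into 3 equal groups over the 4 arms, 82.4%, 81.2% and 81.1% scored higher in replicate 1 on 3R, against 86.7%, 91.0% and 88.8% elsewhere. For 3 such groups by width, the shares from narrow to wide were 79.96%, 81.7% and 83.3% on 3R, against 85.2%, 91.8% and 89.6%. In the median scores of all peaks, 3R was under the other interiors by 0.133 in replicate 1 and by 0.0333 in replicate 2. These lists include the peaks of the pairs, so their medians restate the shift and are no further support.

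**Figure D5:**
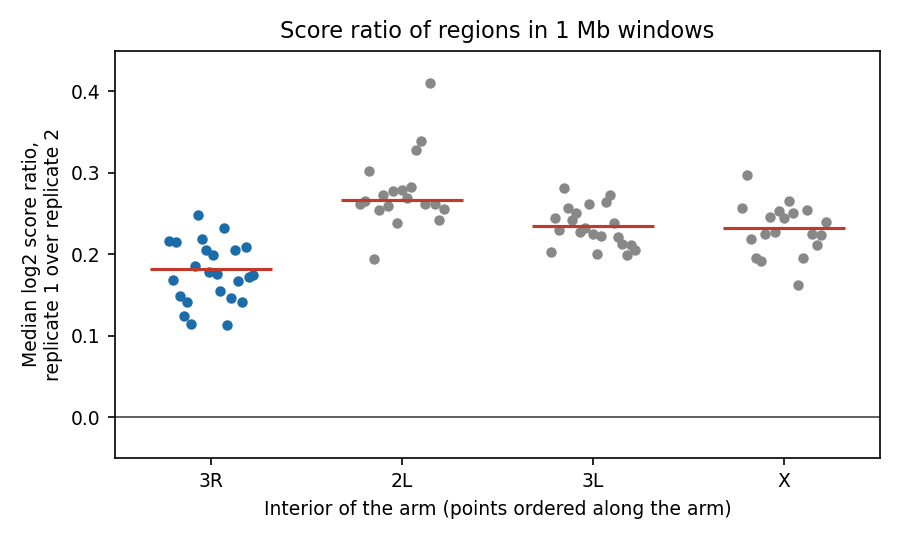
Median log2 ratio of the deposited score in replicate 1 to that in replicate 2 for regions with 1 peak in each replicate, in windows of 1 Mb (points, in order along each arm) of the interiors of 3R, 2L, 3L and X, with a bar at the median over all such regions of the arm. The bar is at 0.18 on 3R and between 0.23 and 0.27 on the other arms.

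The regions on both sides of the interval's ends had scores within the interquartile range of the members, 2.06 to 3.03 around a median of 2.47. The first member, 2036016 to 2036107, had a score of 2.85 and the region just outside, 1975518 to 1975581, had 2.22, and they lay 60.4 kb apart. The last member, 25886633 to 25886863, scored 2.96 and the next region outside, 25922579 to 25922889, scored 2.60, at a distance of 35.7 kb. With both ends of all 4 intervals moved 1 Mb further inward, the density ratio of 3R to the other interiors was 0.976.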

How the data were processed

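Peak lists were available for 2 MCM immunoprecipitations and for the whole series. The lists name PeakSeq as the caller and, per the file headers, use FlyBase release 5.1. The deposited score of each peak has no stated unit. Not given in the sources used here are the aligner, how PeakSeq was set and whether the input entered the calls. Depth is unknown, as no read counts were used. Regions of the whole-series list join overlapping peaks of both replicates and are no further measurement.

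A peak belonged to an interval by its start. Widths were end minus start plus 1, gaps ran from the end of a peak to the next start, and covered length merged overlapping peaks. A peak was shared at 1 bp of overlap. The score of a member in a replicate was that of its highest peak there. Values are given per replicate with mean and SD (n = 2), with exact Clopper-Pearson intervals at 95% for shares. Alternatives were a higher score limit, a minimum width of 20 bp, merging within 1 kb, other windows, overlaps and interval ends, the whole-series list, and leaving out each replicate. The code for these measures, apart from the dense windows, was checked on simulated lists with planted values, which checks the code and supports no difference between arms. Python 3.11.15, NumPy 2.4.6, pandas 2.3.3, SciPy 1.17.1 and matplotlib 3.10.9 were used.

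Named items were, by rule, the 5 highest-scoring, widest and most isolated members, the regions at the ends of the interval, the 5 densest windows of 100 kb, the 5 longest free stretches, the 3 longest runs, the 3 densest and 3 sparsest windows of 1 Mb, and the 3 largest and 3 smallest score ratios. The 1 Mb window that tied with another sparse one and the limit of 0.2 were added after the values were seen. Members, intervals and rules were chosen with earlier results of these data known. The gene table at hand belongs to release 6, so no genes or sequences are given.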

Additional observations from a re-analysis of the deposited data

How the results depend on the processing

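No paired analysis was possible because the input, which shares the replicate number 1, had no values analysed here and the MCM replicates form a single group. Of 45 values recomputed under alternatives for the 8 comparisons of 3R with the other interiors, 18 stayed within 1 SD of the replicates, 25 moved further and 2 changed direction. The SDs of 2 values were small, down to 0.000430, so small moves count. Another 16 values left out 1 replicate, and with 2 replicates these lie within 1 SD of the mean by construction.

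Keeping peaks at or above the median score gave 0.892 for density, 0.881 for covered length, 1.23 for gaps, -0.142 points for empty windows, -0.199 for dense windows and -3.08 for sharing, which changed direction. Merging within 1 kb gave 0.989, 0.929 and 1.01 for density, covered length and gaps, -0.0668 for dense windows and 1.41 for sharing, and the width ratio passed to the other side of 1 at 1.003. Interval ends 1 Mb inward gave 0.976, 0.968 and 1.071 for density, covered length and gaps and 0.619 for sharing. The whole-series list gave 0.980, 0.959 and 1.09, with -3.50 for empty and -1.91 for dense windows. A minimum of 20 bp gave 1.070 for gaps. Windows of 200 kb gave -0.0247 for empty and -2.72 for dense windows, and windows of 50 kb -1.20 for dense ones. Sharing was 1.26 points at 50% of the shorter peak and 0.121 at 50% of both. The causes were not tested.

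Without replicate 1 or without replicate 2, the ranges were 0.967 to 0.973 for density, 0.963 to 0.993 for width, -0.133 to -0.0333 for score, -2.01 to -0.851 for empty windows, -4.29 to -3.27 for dense windows and 0.785 to 0.980 for sharing. The share of members scoring higher in replicate 1 stayed between 80.8% and 82.7% under 3 alternatives chosen after seeing the data. The correlation of neighbouring 100 kb windows, 0.0442 on average, was -0.0286 with windows of 200 kb. Unknown depth limits every count of peaks.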

Other observations

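How far dense zones of MCM extend was looked at by correlating the peak counts of neighbouring windows along each arm, as a description chosen after seeing the data. On 3R, neighbouring windows of 100 kb had Pearson's r of 0.0539 in replicate 1 and 0.0345 in replicate 2 over 238 pairs. The same grid gave 0.243 and 0.190 on 2L, 0.203 and 0.223 on 3L, and 0.257 and 0.216 on X. Leaving out the densest window left r at 0.0525 and 0.0212 on 3R. The gap between 3R and the other arms depended on the grid. With windows moved by 50 kb, r was 0.0340 and 0.0326 on 3R, and 0.0819 and 0.115 on 3L and 0.0405 and 0.0339 on X, while 2L kept 0.272 and 0.207. With windows of 50 kb, r on 3R was 0.228 and 0.243, near the low end of the 0.228 to 0.329 of the other arms. Windows of 200 kb gave -0.0114 and -0.0458 on 3R, and 0.239 and 0.180 on 2L, 0.0118 and 0.106 on 3L, and -0.0947 and -0.154 on X. Windows of 500 kb gave 0.197 and 0.225 on 3R, 0.201 and 0.245 on 2L, -0.116 and -0.0954 on 3L, and -0.522 and -0.384 on X. Moved by 250 kb, they gave 0.00363 and -0.0322 on 3R.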
